A study of Homo sapiens with 6 samples.

Results

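Human mitochondrial DNA carries 37 genes whose symbols begin with MT-, and all 37 were found by that prefix among the 58825 genes of the table. They comprise 13 mRNA genes, 2 rRNA genes and 22 tRNA genes. Their levels were compared between PANC-1 cells treated for 48 h with CMR at 8 µM and control PANC-1 cells. PANC-1 is an established cell line from a human ductal carcinoma of the pancreas, and CMR is known here only by its label. Each group had 3 libraries. The labels describe capture of poly(A) RNA on oligo-dT beads but then name either the poly(A)- or the poly(A)+ fraction as the one fragmented, so which fraction was sequenced cannot be told from them. The treatment of the control cells is not given in the sources used here, nor is any word on separate cultures, so the p-values reflect the spread between the libraries alone, and this may be technical.

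Mitochondrial DNA is copied and transcribed inside the organelle by a dedicated polymerase. Both strands are read as long precursors, which are cut mostly at the tRNAs that stand between the other genes, an arrangement known as tRNA punctuation. The mRNAs encode core subunits of respiratory complexes I, III and IV and of the ATP synthase (complex V), the rRNAs build the mitochondrial ribosome, and the tRNAs serve its translation. The genes of the plus strand of the reference are read from the heavy strand, and those of the minus strand from the light strand. Human mitochondrial mRNAs other than that of MT-ND6 carry short poly(A) tails, whereas the rRNAs bear at most a few added A residues and the mature tRNAs end in an added CCA.

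The CMR libraries held 66460535, 70129221 and 68338576 counts, and the control libraries 51147268, 51715411 and 63811430. All 37 genes were among the 19200 that passed the filter on low counts. A gene was called changed when its edgeR p-value, adjusted over all 19200 genes, was under 0.05. At that threshold 38.6% of the genes tested were called, 20.5% higher and 18.1% lower with CMR, and 53.9% had groups that did not overlap. With upper-quartile scaling, the split was 3250 higher and 4324 lower, against 3928 higher and 3476 lower as reported. The 7 genes checked as markers of a ductal line were all detected. They summed to 3829, 3381 and 2661 CPM (counts scaled to library size) with CMR and 7772, 8111 and 7703 CPM in control. Levels were uneven: VIM alone had 1627, 1460 and 1209 CPM with CMR and 3762, 3787 and 3713 CPM in control. KRT7 ranged only from 2.61 to 5.94 CPM. Of the 7 genes, 6 were called lower with CMR, and EGFR was not called. Adipocyte markers, checked because the protocol text also names adipose tissue, summed to at most 0.397 CPM in any library.

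With CMR, the RNA classes of the mitochondrial genome moved in different directions. Both rRNA genes rose, all 13 mRNA genes fell, and 9 of 22 tRNA genes fell. In all, 24 of the 37 genes were called, 2 higher and 22 lower, and 28 had groups that did not overlap. Over all genes tested these shares were 38.6% called and 53.9% without overlap. The median log2 fold change of the 37 genes was -0.37, beside -0.01 over all genes tested. By class it was 0.77 for rRNA genes, -0.42 for mRNA genes and -0.28 for tRNA genes. No tRNA or mRNA gene was called higher by edgeR, DESeq2 or limma-voom, and 0 of them were higher at an unadjusted edgeR p under 0.05.

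**Figure D1:**
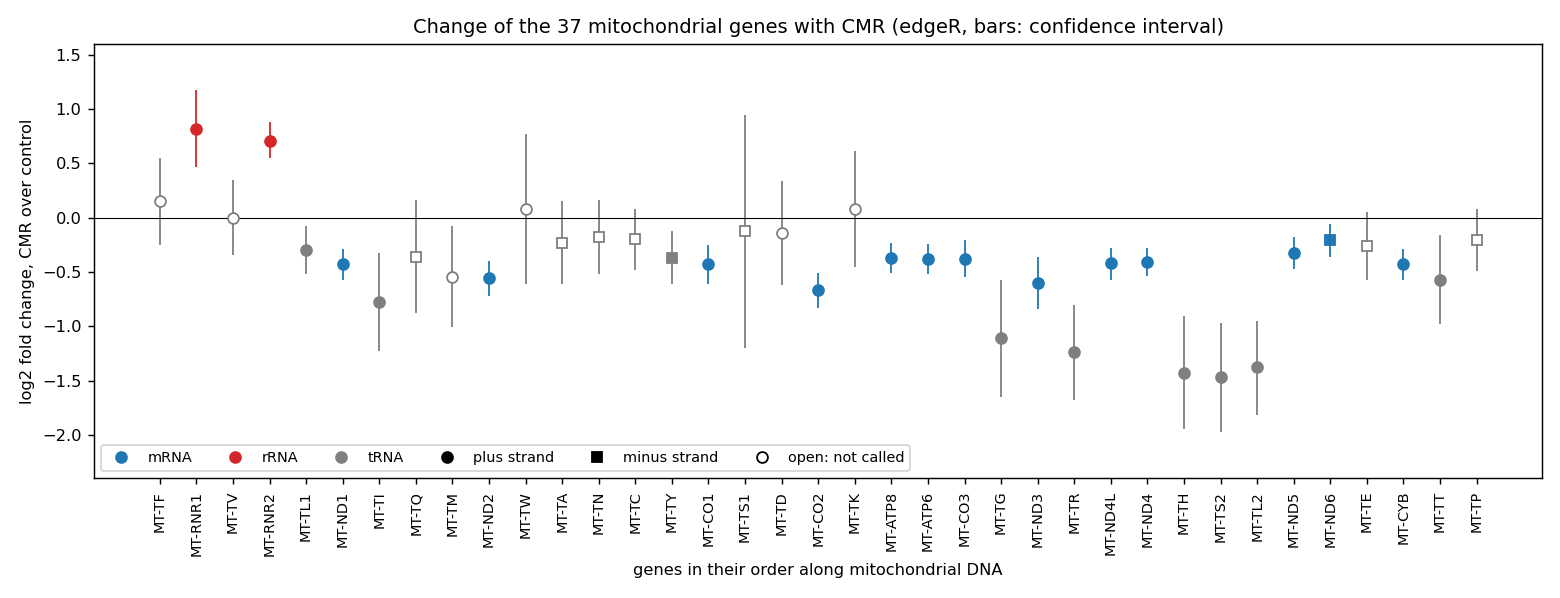
Log2 fold change of CMR over control (vertical axis) for the 37 mitochondrial genes in their order along the genome (horizontal axis), with 95% intervals. Colours mark the RNA class, circles the plus strand, squares the minus strand, and open symbols genes that were not called. Both rRNA genes lie above 0, every mRNA gene lies below 0, and the lowest values, down to -1.47, belong to 5 tRNA genes on the right side.

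The 5 tRNA genes that fell at least 2-fold are printed here because they carry the largest changes, with MT-TC, the most abundant tRNA gene per length, set beside them. In each, the last 3 encoded bases are in capitals. No CCA end is encoded in these 6 genes, and MT-TY alone of the 22 tRNA genes ends in an encoded CCA. The sequences are the GENCODE release 29 transcripts (GRCh38), 5′ to 3′ in the direction of transcription.
MT-TG: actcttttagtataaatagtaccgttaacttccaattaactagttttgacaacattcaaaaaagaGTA
MT-TR: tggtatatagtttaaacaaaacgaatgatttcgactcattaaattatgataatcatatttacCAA
MT-TH: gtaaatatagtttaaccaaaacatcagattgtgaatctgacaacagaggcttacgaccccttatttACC
MT-TS2: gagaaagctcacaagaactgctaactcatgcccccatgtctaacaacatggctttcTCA
MT-TL2: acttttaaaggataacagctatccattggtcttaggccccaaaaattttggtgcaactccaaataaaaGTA
MT-TC: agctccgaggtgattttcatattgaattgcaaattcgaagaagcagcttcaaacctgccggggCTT

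MT-TG, the glycine tRNA gene, spans bases 9991 to 10058 between MT-CO3 and MT-ND3. MT-TR, for arginine, spans 10405 to 10469 between MT-ND3 and MT-ND4L. MT-TH (histidine, 12138 to 12206), MT-TS2 (a serine tRNA, 12207 to 12265) and MT-TL2 (a leucine tRNA, 12266 to 12336) adjoin without a gap between MT-ND4 and MT-ND5. All 5 lie on the plus strand. MT-TC, for cysteine, lies on the minus strand at 5761 to 5826. The GC content of the tRNA genes ran from 23.1% in MT-TR to 49.3% in MT-TS1.

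The rRNA genes were the only members that rose. MT-RNR2, the rRNA of the large mitochondrial ribosomal subunit (bases 1671 to 3229), had 9603, 9386 and 8871 CPM with CMR, against 5490, 6113 and 5401 CPM in control. The groups did not overlap, and the log2 fold change was 0.71 ± 0.07 (SE, n = 3 each; edgeR adjusted p = 0.000408). MT-RNR1, the rRNA of the small subunit (bases 648 to 1601), had 1694, 1548 and 1562 CPM with CMR, against 821, 1135 and 760 CPM in control. Here control replicate 2 stood above the other control libraries but below every CMR library, and the log2 fold change was 0.82 ± 0.15 (SE; adjusted p = 0.00474). The ratio of MT-RNR2 to MT-RNR1 counts was 5.67, 6.06 and 5.68 with CMR and 6.69, 5.39 and 7.11 in control, so that the groups overlapped.

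The rRNA genes took 22.8%, 22.4% and 22.8% of all mitochondrial counts with CMR, against 10.9%, 12.6% and 11.0% in control. The count of rRNA genes per count of mRNA genes was 0.300, 0.292 and 0.299 with CMR and 0.124, 0.146 and 0.125 in control. The mean ratio was 2.26-fold higher with CMR, and the groups did not overlap. This ratio needs no scaling between libraries. MT-RNR2 and MT-ND1, its downstream mRNA neighbour past the leucine tRNA gene MT-TL1, differed in the same way. The ratio of MT-RNR2 to MT-ND1 counts was 2.71, 2.50 and 2.35 with CMR and 1.10, 1.27 and 1.06 in control.

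If the poly(A)+ fraction was sequenced, the levels of rRNA and tRNA genes are those of the molecules that the selection kept. The summed level of RNAs from nuclear genes that lack a poly(A) tail also differed between the groups. Of 20 such genes, RNY1, RNY3, SCARNA2 and RNU12 were at 0 in every library, and 9 passed the filter, several of them through their control counts, so no count of calls is given. The summed level of the list was 17.0, 11.1 and 6.04 CPM with CMR and 77.3, 95.4 and 38.2 CPM in control, without overlap. The summed level of the list was lower with CMR while the mitochondrial rRNA genes were higher, and its part in the rRNA and tRNA results was not tested.

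**Figure D2:**
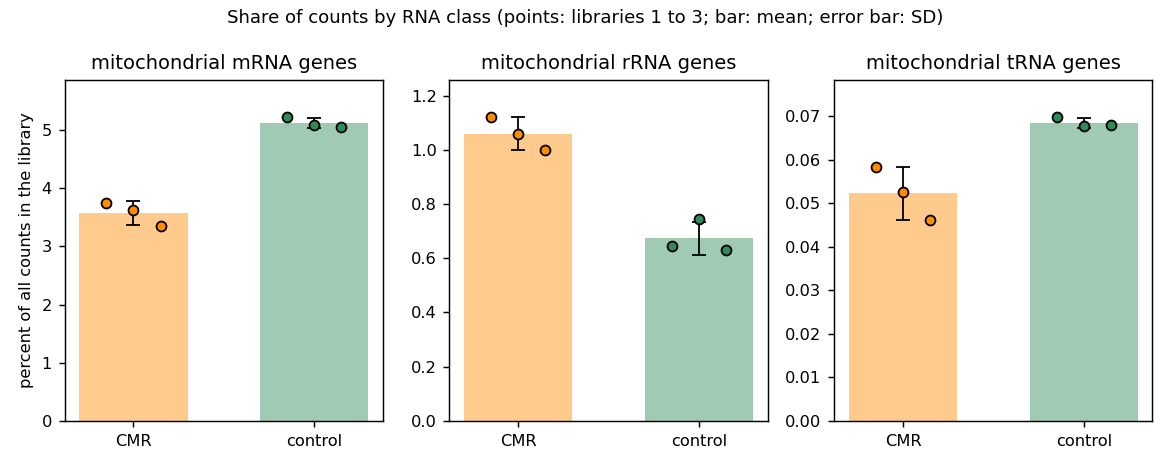
Percent of all counts in a library (vertical axis, from 0) taken by the mitochondrial mRNA, rRNA and tRNA genes in CMR and control libraries. Points are libraries, bars are means and error bars are SD (n = 3 each). The mRNA and tRNA shares are lower in every CMR library than in any control library, and the rRNA share is higher.

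Over all 37 genes, the mitochondrial genome took 4.93%, 4.74% and 4.40% of counts with CMR and 5.93%, 5.90% and 5.76% in control. The mRNA genes took 3.75%, 3.63% and 3.35% with CMR and 5.22%, 5.09% and 5.06% in control. The rRNA genes took 1.06% ± 0.0608 with CMR and 0.674% ± 0.0604 in control (SD, n = 3 each). The tRNA genes took 0.0583%, 0.0527% and 0.0461% with CMR and 0.0698%, 0.0677% and 0.0680% in control. The groups did not overlap in any of these shares, which are sums over the members and were not tested. In bulk RNA of a cell line, a change in every cell and a change in only some of the cells cannot be told apart.

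All 13 mRNA genes fell, with log2 fold changes from -0.67 to -0.21. The largest fall was that of MT-CO2, which encodes subunit 2 of cytochrome c oxidase (complex IV). It had 4026, 3782 and 3571 CPM with CMR and 6258, 5932 and 5925 CPM in control, a log2 fold change of -0.67 ± 0.07 (SE; adjusted p = 0.000424), or 1.59-fold higher in control. MT-CO1, the catalytic subunit of the same complex and number 2 of the whole table by summed count, had 8596, 8062 and 7241 CPM with CMR and 11062, 10837 and 10289 CPM in control. Its log2 fold change was -0.43 ± 0.08 (SE; adjusted p = 0.00424). The groups did not overlap for either gene, and the ratio of MT-CO2 to MT-CO1 counts was 0.468, 0.469 and 0.493 with CMR and 0.566, 0.547 and 0.576 in control. MT-CO3, the other complex IV subunit, had a log2 fold change of -0.38 (adjusted p = 0.00556).

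The 7 subunits of complex I, the NADH dehydrogenase, had a median log2 fold change of -0.42. MT-ND1 (bases 3307 to 4262) had 3538, 3759 and 3774 CPM with CMR and 4994, 4806 and 5118 CPM in control. MT-ND3 had 396, 350 and 309 CPM with CMR and 553, 538 and 511 CPM in control. MT-ND3 fell the most in the complex (log2 fold change -0.60 ± 0.10, SE; adjusted p = 0.00352), followed by MT-ND2 (-0.56, adjusted p = 0.000907). MT-ND1, MT-ND4L and MT-ND4 lay between -0.43 and -0.41, and MT-ND5 at -0.33 (adjusted p = 0.00545).

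MT-ND6 is the only mRNA gene of the minus strand (bases 14149 to 14673). It had 800, 796 and 766 CPM with CMR and 936, 874 and 919 CPM in control, and every CMR library was below every control library. Its log2 fold change of -0.21 ± 0.06 (SE; adjusted p = 0.0381; 95% interval -0.36 to -0.06) was the smallest of the mRNA genes. The call was lost (adjusted p from 0.0545 to 0.148) without CMR replicate 2 or 3 or any of the control replicates. Per count of its plus-strand neighbour MT-ND5, MT-ND6 had 0.256, 0.251 and 0.259 counts with CMR and 0.245, 0.232 and 0.228 in control. Whether the libraries keep the strand is not given in the sources used here, so fragments of MT-ND6 and of RNA from the opposite strand cannot be told apart.

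MT-CYB, which encodes cytochrome b of complex III, had 1610, 1671 and 1557 CPM with CMR and 2179, 2161 and 2173 CPM in control (log2 fold change -0.43 ± 0.06, SE; adjusted p = 0.00151). MT-ATP8 and MT-ATP6 encode subunits of the ATP synthase and sit in a single bicistronic transcript. MT-ATP8 averaged 925 ± 14.3 CPM with CMR and 1196 ± 35.5 CPM in control, and MT-ATP6 averaged 682 ± 16.8 CPM with CMR and 888 ± 13.3 CPM in control (SD, n = 3 each). The log2 fold change was -0.37 for MT-ATP8 (adjusted p = 0.00308) and -0.38 for MT-ATP6 (adjusted p = 0.00283). Counts of MT-ATP6 per count of MT-ATP8 overlapped between the groups, at 0.765, 0.736 and 0.713 with CMR and 0.709, 0.766 and 0.754 in control.

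The reading frames of these 2 genes overlap by 46 bases, and fragments there cannot be assigned to either. The shared bases are in capitals in the last 60 bases of MT-ATP8 (8513 to 8572) and the first 60 of MT-ATP6 (8527 to 8586).
MT-ATP8: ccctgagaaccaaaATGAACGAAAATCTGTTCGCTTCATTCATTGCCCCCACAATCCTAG
MT-ATP6: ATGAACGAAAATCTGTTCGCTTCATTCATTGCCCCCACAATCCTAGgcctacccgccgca
MT-ND4L and MT-ND4 likewise share 7 bases, and MT-ATP6 and MT-CO3 share 1 base.

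The mRNA genes also differ in how they end. In 7 genes the length is a whole number of codons. Their last codon is AGA in MT-CO1, AGG in MT-ND6 and TAA or TAG in the rest. The other 6 (MT-ND1, MT-ND2, MT-CO3, MT-ND3, MT-ND4 and MT-CYB) end 1 or 2 bases past the last full codon. A stop codon arises there when the tail is added. The last 24 bases of 4 genes show both kinds, with the last codon or the encoded part of the stop codon in capitals.
MT-CO2: atagggcccgtatttaccctaTAG
MT-ND6: attgagattgctcgggggaatAGG
MT-ND1: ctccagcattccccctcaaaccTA
MT-ND4: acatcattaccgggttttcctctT
The genes that end on a full codon had a median log2 fold change of -0.38 (from -0.67 to -0.21), and the others had a median of -0.43 (from -0.60 to -0.38). The ranges of the 2 kinds overlapped.

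**Figure D3:**
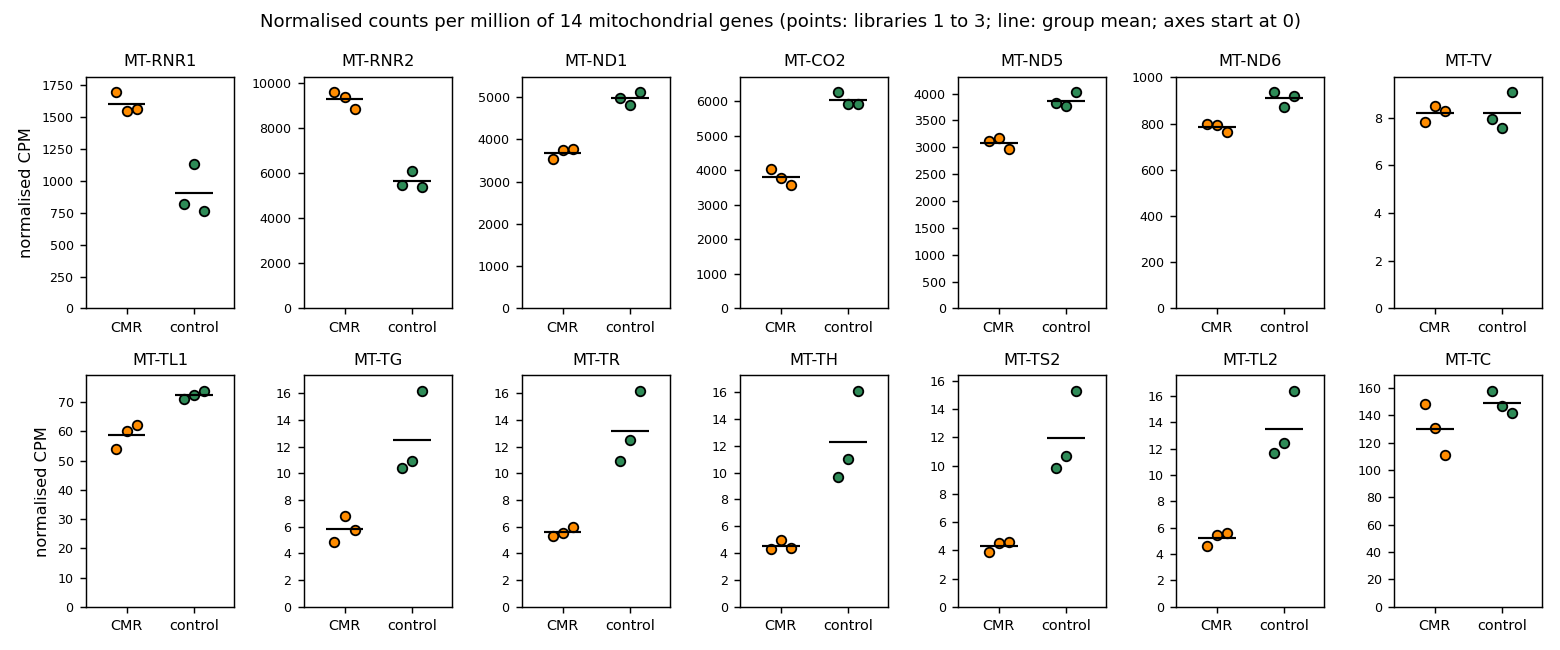
Normalised CPM (vertical axes, from 0) of 14 mitochondrial genes in each CMR and control library. Points are libraries and lines are group means (n = 3 each). MT-RNR1 and MT-RNR2 are higher with CMR, the mRNA genes are lower, MT-TV overlaps between the groups, and control replicate 3 is the highest library for MT-TG, MT-TR, MT-TH, MT-TS2 and MT-TL2.

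Per length, with FPKM as the level, the mRNA genes ran with CMR from 4538 ± 356 FPKM for MT-CO2 and 4229 ± 436 FPKM for MT-CO1 down to 832 ± 119 FPKM for MT-ND3 and 820 ± 34.0 FPKM for MT-ATP6 (SD, n = 3). Within each of these pairs the levels were closer than their spread between libraries. MT-CO2 was still above MT-CO1 in every CMR library, at 4910 and 4650, 4503 and 4258, and 4200 and 3779 FPKM. The order of MT-ND3 and MT-ATP6 varied between the CMR libraries. In control cells the order ran from MT-CO2 (7617 ± 245 FPKM), MT-CO1 (6004 ± 234 FPKM) and MT-ND4 (5396 ± 65.9 FPKM) down to MT-ND3 (1331 ± 56.4 FPKM) and MT-ATP6 (1125 ± 15.5 FPKM). There MT-ATP8 (4984 ± 146 FPKM) and MT-ND4L (4975 ± 82.1 FPKM) were closer than their spread. These genes, of 207 and 297 bases, are shorter than the library inserts of about 300 bp given in the labels. Their rank by FPKM is therefore uncertain. MT-RNR2 was at 4873 ± 281 FPKM with CMR, close to MT-CO2, and at 3137 ± 221 FPKM in control, below 8 of the mRNA genes.

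The tRNA genes spanned a far wider range of levels, from 3.93 FPKM for MT-TS1 to 1611 FPKM for MT-TC with CMR, and from 4.52 FPKM to 1946 FPKM for the same genes in control. They are 59 to 75 bases long, shorter than the library inserts of about 300 bp given in the labels. Counts of mature tRNAs and of longer RNAs that hold the tRNA sequence could therefore not be separated here. Of the 22 genes, 9 fell and 13 were not called.

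The 5 tRNA genes whose sequences are given above were called and at least 2-fold lower, which holds for 8.55% of all genes tested. MT-TS2 had 3.89, 4.50 and 4.56 CPM with CMR and 9.80, 10.7 and 15.3 CPM in control, or 2.77-fold higher in control (log2 fold change -1.47 ± 0.21, SE; adjusted p = 0.00180). MT-TH had 4.33, 4.94 and 4.36 CPM with CMR and 9.69, 11.0 and 16.1 CPM in control (-1.43 ± 0.22, adjusted p = 0.00238). MT-TL2 had 4.59, 5.42 and 5.57 CPM with CMR and 11.7, 12.4 and 16.4 CPM in control (-1.38 ± 0.19, adjusted p = 0.00133). These 3 adjoining genes had close levels in every library.

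MT-TR had 5.27, 5.51 and 5.99 CPM with CMR and 10.9, 12.5 and 16.2 CPM in control (-1.24 ± 0.19, adjusted p = 0.00211). MT-TG had 4.83, 6.82 and 5.75 CPM with CMR and 10.4, 10.9 and 16.2 CPM in control (-1.11 ± 0.23, adjusted p = 0.00807). In all 5 genes every CMR library was below every control library, and control replicate 3 was the highest. Without that library the log2 fold changes were -1.24 for MT-TS2, -1.18 for MT-TH, -1.22 for MT-TL2, -1.06 for MT-TR and -0.88 for MT-TG, and each was called.

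Per count of the mRNA gene beside them, MT-TH, MT-TL2, MT-TG and MT-TR were lower in every CMR library than in any control library. Counts of MT-TH per count of MT-ND4 were 0.000661, 0.000736 and 0.000700 with CMR and 0.00111, 0.00129 and 0.00187 in control. Counts of MT-TL2 per count of MT-ND5 were 0.00147, 0.00171 and 0.00188 with CMR and 0.00307, 0.00330 and 0.00408 in control. The mean log2 difference of the ratio was -0.72 for MT-TG over MT-CO3 and -0.61 for MT-TR over MT-ND3. Counts of all 22 tRNA genes per count of the 13 mRNA genes were higher with CMR, at 0.0155, 0.0145 and 0.0138 with CMR and 0.0134, 0.0133 and 0.0135 in control, without overlap, a mean log2 difference of 0.12. These ratios were not tested. Minus-strand genes held most of the summed tRNA counts. With CMR they held 31592 of 38719, 28645 of 36950 and 23470 of 31530. In control they held 27312 of 35723, 26109 of 35027 and 30462 of 43421.

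The other 4 tRNA genes that were called fell by less. MT-TI, for isoleucine, had 2.98, 2.70 and 3.26 CPM with CMR and 4.57, 5.00 and 5.82 CPM in control (log2 fold change -0.78, adjusted p = 0.0157). MT-TT, for threonine, had a log2 fold change of -0.57 (adjusted p = 0.0380), MT-TY, for tyrosine, of -0.37 (adjusted p = 0.0291), and MT-TL1 of -0.30 (adjusted p = 0.0374). MT-TL1 had 53.9, 60.2 and 62.1 CPM with CMR and 71.0, 72.4 and 73.9 CPM in control. All 4 lost their call in some of the fits that left out 1 library: MT-TL1 without any library except CMR replicate 3, MT-TT without any except CMR replicate 2, MT-TY without any except CMR replicate 1, and MT-TI without CMR replicate 2 or control replicate 3. Without control replicate 3, 5 of the 22 tRNA genes were called lower, beside 13.2% of all genes.

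The 13 tRNA genes that were not called included the first of the plus strand. MT-TF, for phenylalanine, had 4.07, 3.97 and 4.39 CPM with CMR and 3.59, 3.73 and 3.86 CPM in control (log2 fold change 0.15, 95% interval -0.25 to 0.55). MT-TV, for valine, which lies between the rRNA genes, had 7.83, 8.49 and 8.28 CPM with CMR and 7.93, 7.56 and 9.07 CPM in control (0.00, 95% interval -0.34 to 0.35). For MT-TF every CMR library was above every control library, and its interval overlapped that of the adjoining MT-RNR1 (0.47 to 1.18). The interval of MT-TV lay below those of MT-RNR1 and MT-RNR2 (0.55 to 0.88). Differences between these genes were not tested. MT-TM, for methionine, came nearest to a call, with 3.29, 4.17 and 4.12 CPM with CMR and 4.95, 5.43 and 6.53 CPM in control (-0.55, adjusted p = 0.0650). MT-TS1, with 14 counts in its lowest library, had the widest interval (-1.20 to 0.95), and a change was not detectable at this depth. The log2 fold changes of the others not called were -0.36 for MT-TQ (glutamine), -0.26 for MT-TE (glutamate), -0.23 for MT-TA (alanine), -0.21 for MT-TP (proline), -0.14 for MT-TD (aspartate) and 0.08 for both MT-TW (tryptophan) and MT-TK (lysine). For MT-TV, MT-TW and MT-TK the direction turned with upper-quartile scaling and with FPKM.

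On the minus strand, the tRNA genes MT-TA, MT-TN, MT-TC and MT-TY stand side by side and were among the most abundant tRNA genes. MT-TC had 148, 131 and 111 CPM with CMR and 158, 147 and 142 CPM in control (log2 fold change -0.20, adjusted p = 0.233). MT-TN, for asparagine, had 143, 124 and 98.6 CPM with CMR and 149, 138 and 127 CPM in control (-0.18, adjusted p = 0.374). The groups overlapped for both genes, as they did for MT-TA. Of this run MT-TY was called, with 94.4, 84.9 and 75.4 CPM with CMR and 114, 110 and 104 CPM in control. As it is not given whether the libraries keep the strand, RNA from the opposite strand may be counted in these genes.

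By strand, 22 of 28 plus-strand genes were called, 2 higher and 20 lower, with a median log2 fold change of -0.43. On the minus strand, 2 of 9 genes (22.2%) were called, both lower, with a median of -0.21. Over all genes tested, 20.5% were called higher and 18.1% lower. Among tRNA genes alone, 8 of 14 (57.1%) fell on the plus strand (median -0.56) and 1 of 8 (12.5%) on the minus strand (median -0.22). The difference between the strands was not tested. Whether the libraries keep the strand is not given in the sources used here. Counts of a gene may therefore include RNA from the opposite strand, for the tRNA genes of either strand as well. The summed minus-strand counts per summed plus-strand count were 0.0265, 0.0255 and 0.0251 with CMR and 0.0258, 0.0243 and 0.0253 in control, and the groups overlapped. The ratio of minus-strand to plus-strand tRNA counts overlapped as well, at 4.43, 3.45 and 2.91 with CMR and 3.25, 2.93 and 2.35 in control.

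Position along the genome was described among genes of the plus strand. Across the 14 plus-strand tRNA genes, the log2 fold change was lower toward the far end of the genome (Spearman's rho -0.70, Pearson's r -0.68). Across the 12 plus-strand mRNA genes rho was 0.45 and r was 0.28, and across the 13 mRNA genes the change and the gene length had a rho of -0.05. These are descriptions across genes measured in the same 6 libraries, and the genes are not independent.

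**Figure D4:**
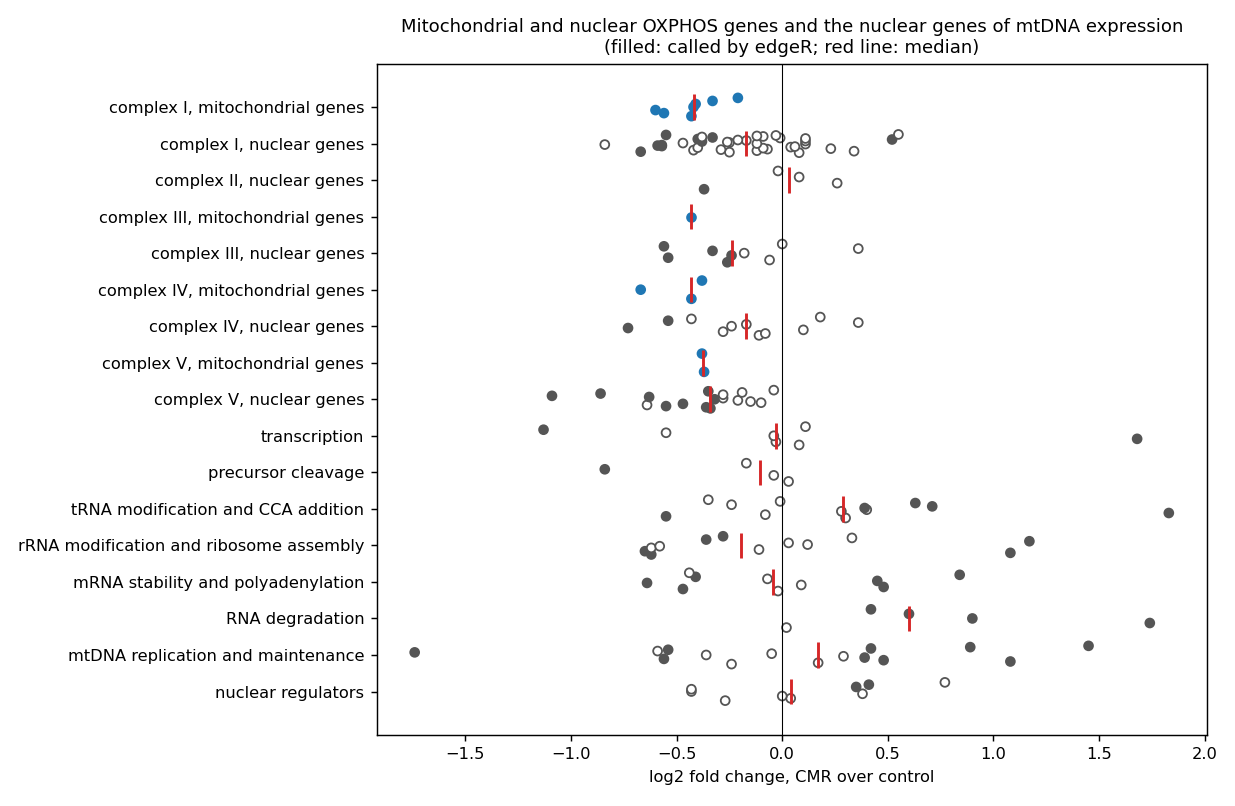
Log2 fold change of CMR over control (horizontal axis) of the mitochondrial subunit genes (blue), the nuclear subunit genes of each complex and the nuclear genes that act on mitochondrial DNA and RNA (grey), by role (vertical axis). Each point is a gene, filled where it was called, and red lines are medians. All mitochondrial subunit genes lie below 0, the nuclear subunit genes spread on both sides in complexes I to IV, and those of complex V all lie below 0.

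Respiratory complexes I, III, IV and V hold subunits from both genomes, while complex II is wholly nuclear. Of 78 nuclear subunit genes, 25 fell, 1 rose and 52 were not called (33.3% called, median log2 fold change -0.24), beside 18.1% called lower and 20.5% called higher over all genes tested. In complex V 9 of 17 fell (median -0.34), in complex III 5 of 9 (median -0.24), in complex I 8 of 37 (median -0.17), in complex IV 2 of 11 (median -0.17) and in complex II 1 of 4 (median 0.03). The mitochondrial subunits of the same complexes had medians of -0.38 for V, -0.43 for III, -0.42 for I and -0.43 for IV. The number of nuclear genes called lower was 11 without CMR replicate 2, 12 without control replicate 1 and 11 without control replicate 2, beside 14.6%, 12.4% and 12.7% of all genes. The number called higher was 6 without CMR replicate 1 and 2 without CMR replicate 2, beside 20.0% and 16.6% of all genes.

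The largest fall among the nuclear subunits was that of ATP5MC3, which encodes the c subunit of the ATP synthase rotor. It had 80.5, 69.9 and 56.9 CPM with CMR and 148, 150 and 143 CPM in control (log2 fold change -1.09 ± 0.13, SE; adjusted p = 0.000883). COX6B1 of complex IV had 77.2, 63.1 and 53.1 CPM with CMR and 110, 111 and 100 CPM in control (-0.73, adjusted p = 0.00627). UQCR10 of complex III had a log2 fold change of -0.56 (adjusted p = 0.00913). NDUFS1, an iron-sulfur subunit of complex I, was the nuclear subunit gene that rose, with 238, 277 and 297 CPM with CMR and 192, 188 and 188 CPM in control (0.52, adjusted p = 0.00515). The called genes NDUFA3 (-0.67), SDHA (-0.37), UQCRFS1 (-0.24), COX7C (-0.54) and ATP5PO (-0.32) were less stable. NDUFA3 was not called without control replicate 1 or 2, nor ATP5PO without CMR replicate 2 or control replicate 1 or 2. With 1 library left out, SDHA was called only without CMR replicate 1 or control replicate 1, UQCRFS1 only without CMR replicate 1 or 3, and COX7C only without CMR replicate 1 or control replicate 2.

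Of 74 nuclear genes that transcribe, process, modify, degrade or maintain mitochondrial nucleic acids, 22 rose, 13 fell and 39 were not called (47.3% called, median log2 fold change 0.02), beside 20.5% called higher and 18.1% called lower over all genes tested. Without control replicate 1, 2 or 3 the number that rose was 11, 13 and 13, beside 15.7%, 15.8% and 16.5% of all genes. Without control replicate 1 or 3 the number that fell was 8, beside 12.4% and 13.2% of all genes. With upper-quartile scaling 21 fell, beside 22.5% of all genes.

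Among the factors of transcription, POLRMT, the mitochondrial RNA polymerase, had 19.9, 17.8 and 22.9 CPM with CMR and 20.5, 16.8 and 20.0 CPM in control (log2 fold change 0.08, adjusted p = 0.709). TFAM, which packages the genome and bends its promoters, had 106, 122 and 126 CPM with CMR and 120, 119 and 123 CPM in control (-0.03, adjusted p = 0.803). For both genes the groups overlapped. TFB2M, which melts the promoter with the polymerase, had 65.0, 85.1 and 107 CPM with CMR and 25.5, 28.1 and 26.6 CPM in control, 3.21-fold higher with CMR (1.68 ± 0.18, SE; adjusted p = 0.000590). MTERF2, of the mitochondrial termination factor family, fell (-1.13, adjusted p = 0.0200), which was not called without CMR replicate 2 or control replicate 1 or 3.

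Among the processing factors, 1 of 4 precursor cleavage genes was called. It is KIAA0391, the protein-only RNase P subunit PRORP that cuts the 5′ ends of mitochondrial tRNAs, with 17.8, 18.8 and 9.88 CPM with CMR and 26.1, 28.5 and 28.9 CPM in control (log2 fold change -0.84, adjusted p = 0.0280). That call was lost without any of the control replicates. Of 12 genes of tRNA modification and CCA addition, 4 rose and 1 fell, beside 20.5% called higher and 18.1% lower over all genes. MTO1, which modifies the wobble base of several mitochondrial tRNAs, had 169, 178 and 209 CPM with CMR and 52.1, 54.1 and 50.0 CPM in control, 3.56-fold higher with CMR (1.83 ± 0.11, SE; adjusted p = 6.7e-05). TRMU, which thiolates the same position, had 31.4, 31.0 and 33.8 CPM with CMR and 49.9, 45.1 and 46.3 CPM in control (-0.55, adjusted p = 0.00445).

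Of 12 genes of rRNA modification and ribosome assembly, 2 rose and 4 fell. Over all genes tested, 20.5% were called higher and 18.1% lower. TRUB2, a mitochondrial pseudouridine synthase, had 54.2, 55.7 and 72.0 CPM with CMR and 26.8, 27.8 and 26.1 CPM in control (log2 fold change 1.17, adjusted p = 0.000725). MTERF3, which acts on mitochondrial transcription and ribosome assembly, had 24.1, 24.5 and 22.7 CPM with CMR and 36.3, 35.1 and 40.9 CPM in control (-0.65, adjusted p = 0.00335). Both genes had groups that did not overlap.

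LRPPRC and SLIRP form the complex that stabilises mitochondrial mRNAs and promotes their polyadenylation. LRPPRC had 431, 533 and 541 CPM with CMR and 485, 518 and 523 CPM in control (log2 fold change -0.02, adjusted p = 0.892), with overlapping groups. SLIRP had 29.5, 24.3 and 25.7 CPM with CMR and 34.0, 39.6 and 36.8 CPM in control (-0.47, adjusted p = 0.0194), which was not called without CMR replicate 2 or control replicate 2 or 3. The FASTK family members FASTKD1 and FASTKD5, which act on particular mitochondrial transcripts, went opposite ways. FASTKD1 fell (-0.64, adjusted p = 0.00380) and FASTKD5 rose (0.84, adjusted p = 0.00351).

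Of 5 genes of mitochondrial RNA degradation, 4 rose (median log2 fold change 0.60). Over all genes tested, 20.5% were called higher and 18.1% lower. SUPV3L1, the helicase of the mitochondrial degradosome, had 161, 187 and 252 CPM with CMR and 59.1, 58.9 and 61.1 CPM in control, 3.35-fold higher with CMR (1.74 ± 0.16, SE; adjusted p = 0.000340). LACTB2, a mitochondrial endoribonuclease, had a log2 fold change of 0.42 (adjusted p = 0.0464), a call lost without any of the 6 libraries in turn. Of the 15 genes of replication and maintenance, 6 rose and 3 fell. LONP1, the matrix protease that can degrade TFAM, rose (1.45, adjusted p = 0.000288), as did TWNK, the replicative helicase (1.08, adjusted p = 0.0293), with a call lost without any of the control replicates. DNA2, a nuclease and helicase of nucleus and mitochondria, fell (-1.74, adjusted p = 0.000352). Of 9 nuclear regulators 2 rose (22.2%), near the share of all genes called higher. They were YY1 (0.41, adjusted p = 0.0204) and PPRC1 (0.35, adjusted p = 0.0382). YY1 lost its call without CMR replicate 2 or any control replicate, and PPRC1 without any library except CMR replicate 2.

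The nuclear genome carries copies of mitochondrial genes, and counts can be split between a gene and its copies. The table names 407 such copies, of which 68 had a count, and together they held 1.21% to 1.88% as many counts as the MT- genes. The exception in size was MTATP6P1 (chromosome 1, bases 633696 to 634376), which is 98.5% identical to MT-ATP6 over 681 bases. It took 38.5%, 38.2% and 38.9% of the counts of MT-ATP6 and its copies with CMR and 40.8%, 38.9% and 39.3% in control. The level of MT-ATP6 in FPKM, the lowest of the mRNA genes in each group, is therefore uncertain. MTATP6P1 itself fell (log2 fold change -0.45 ± 0.06, SE; adjusted p = 0.00180), and its reads cannot be told from those of MT-ATP6 outside the differing bases.

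The copies of MT-ND2 took 3.33% to 10.2% of that family's counts in the 6 libraries, and those of every other mRNA and rRNA gene at most 1.05%. MTND2P28, on chromosome 1 and 98.4% identical to MT-ND2, had 118, 202 and 326 CPM with CMR and 159, 158 and 343 CPM in control (log2 fold change -0.03, adjusted p = 0.959). In both groups replicate 3 was the highest. MTRNR2L12, on chromosome 3 and 95.0% identical to MT-RNR2, had 1.50, 1.45 and 1.65 CPM with CMR and 0.956, 0.924 and 0.916 CPM in control (0.72, adjusted p = 0.0523). When the counts of the copies were added to their MT- gene, no gene's call changed, with 2 higher and 22 lower.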

How the data were processed

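RNA of 6 PANC-1 libraries was sequenced as paired-end reads after oligo-dT bead capture, per the labels' protocols, which leave unstated whether the poly(A)- or poly(A)+ fraction was used. The authors' deposited table holds, per the file headers, whole-number counts and FPKM values for 58825 genes, with 0 columns of no sample. The deposited counts are not normalized, and the deposited FPKM values are counts relative to gene length and library size. The software named in the submitters' processing notes is Bowtie 0.12.2, HISAT2 2.0, StringTie 1.3.0, with the mouse build mm8, but the identifiers are human, and all 37 mitochondrial genes have the coordinates of GENCODE release 29 (GRCh38), from whose transcripts the sequences were read. Neither the strandedness nor the counting of reads that match several places is given in the sources used here.

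Counts of all genes were fitted with edgeR 4.0.16 (R 4.3.3): TMM scaling (factors 0.960 to 1.03), filterByExpr (minimum count 10, minimum total 15), and the quasi-likelihood test, with p-values adjusted by Benjamini-Hochberg over 19200 genes of the 31368 that had a count. Log2 fold changes are CMR over control, from this fit of the deposited counts, with no covariate. CPM are counts scaled to TMM-adjusted library sizes. Sums and ratios over members are descriptions without a test. The precision rests on totals of 51147268 to 70129221 counts and on 3 libraries per group. No pair of libraries had equal counts in more than 3.37% of genes, so none was a copy of another.

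The members and gene lists were chosen with earlier results of these data known. Every MT- gene could be named; of the nuclear lists, the called member with the largest and the smallest log2 fold change in each role, plus POLRMT, TFAM, TFB2M, TWNK, LRPPRC and SLIRP; and nuclear copies with a mean of at least 1 FPKM in a group. Alternatives were other scalings, filters, DESeq2 1.42.0, limma 3.58.1 (voom, and log2 of FPKM plus 1 or 0.1 with a mean FPKM of at least 1), a replicate block, each library left out, and counts of nuclear copies added. Raw reads were not analysed here. Figures used matplotlib 3.10.9.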

Additional observations from a re-analysis of the deposited data

How the results depend on the processing

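Of 665 values of a mitochondrial gene under an alternative, 604 kept their direction and side of the threshold, 30 lost the call, 11 gained one and 20 changed sign. Of the 24 genes called, 19 were called in the same direction under every alternative: both rRNA genes, all mRNA genes except MT-ND6, and MT-TG, MT-TR, MT-TH, MT-TS2 and MT-TL2. The others lost the call under 8 of 18 alternatives for MT-TL1 and for MT-ND6, 7 for MT-TT, 5 for MT-TY and 2 for MT-TI. The rRNA genes ranged from 0.58 to 0.77 (MT-RNR2) and from 0.69 to 1.02 (MT-RNR1). DESeq2 lost the calls of MT-TL1 and MT-ND6, among 7971 genes called of 22788. The tests on FPKM called 26 of the mitochondrial genes lower, MT-TQ, MT-TM, MT-TE and MT-TP among them. Of the 11711 genes in those tests, 28.6% were called lower with FPKM plus 1 and 28.1% with FPKM plus 0.1. Upper-quartile scaling shifted the median of all genes by -0.13. Under it MT-TV was at -0.13, MT-TW, MT-TK and POLRMT at -0.05 each, 21 machinery genes fell, and LACTB2, PPRC1 and YY1 were not called. MT-TV was also at -0.07 with library totals, -0.02 with a mean of at least 1 CPM, -0.00 with limma-voom and -0.07 with log2 of FPKM plus 1 or 0.1, where MT-TW was at -0.00 and MT-TK at -0.01. With FPKM the log2 minus-to-plus-strand ratio differed by 0.10 in place of 0.03. The causes were not tested. MT-TS1, at 14 to 27 counts per library the gene most limited by depth, has no value with a mean of at least 1 CPM.

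With 1 library left out, ranges included 0 for MT-TV (-0.05 to 0.08), MT-TW (-0.06 to 0.24), MT-TS1 (-0.31 to 0.00), MT-TK (-0.11 to 0.23), POLRMT (-0.02 to 0.16), TFAM (-0.09 to 0.03), LRPPRC (-0.08 to 0.07), MTND2P28 (-0.47 to 0.44) and MTND1P23 (-1.13 to 0.35). Counts ranged from 5 to 7 for tRNA genes lower, 11 to 21 for machinery genes higher and 8 to 14 lower, and 1 to 6 for nuclear subunit genes higher and 11 to 36 lower. Over all genes in these fits, the share called lower ran from 12.4% without control replicate 1 to 18.8% without CMR replicate 1. The share called higher ran from 15.7% to 20.0% in the same fits. The highest counts of machinery and nuclear subunit genes came without CMR replicate 1.

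With the replicate number as a block, 6737 genes were called (35.1%). Of the mitochondrial genes, MT-TL1, MT-ND6 and MT-TT lost the call (adjusted p of 0.0607, 0.0782 and 0.0687), leaving 19 lower and 2 higher; of the nuclear genes named, TWNK, SLIRP, LACTB2, SDHA and UQCRFS1 did. Same-numbered libraries deviated together only weakly (correlations 0.0344, 0.0440 and 0.0520), so the numbers were not taken to pair them, although each library correlated best with its own number.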
